A study of Rattus norvegicus with 6 samples.

Results

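Collagens are the main fibrous proteins of the connective tissue that surrounds the glands of the prostate. The genes described here are those of fibrillar and associated collagens and of the proteins that mature them: Col1a1, Col1a2, Col3a1, Col5a1, Col5a2, Col12a1, Col18a1, P4ha1, Serpinh1 and Lox. Members were all probe sets annotated to 1 of these 10 genes and to no other gene. They numbered 16 of the 8799 probe sets on the array and covered 9 of the 10 genes, since no probe set was named as Col18a1 here. Of the 16, 15 were bright enough to be tested. The tested set held 4 probe sets for Col1a1, 3 for Lox, 2 for Col3a1 and 1 for each of the other 6 genes. The fourth Lox probe set, rc_AA875582_at, was at or below 0 on 3 arrays and its highest value was 223, so it was not tested.

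The study fed male rats of the inbred ACI strain diets with much or little corn oil over 18 months, and measured RNA from the dorsolateral prostate on 1 array per rat. The 3 animals given the high diet are called high-oil rats 1 to 3 here, and the 3 given the low diet low-oil rats 1 to 3, by their replicate numbers. Both groups are labelled as 18 months of age, the same figure as the time on the diet, and no allele or drug is named for either. Corn oil is a plant oil with much linoleic acid. The prostate tissue was not sorted by cell type, so fewer cells of a type and less RNA per cell cannot be told apart in any value below. High-oil rat 3 is named as high in its title and source but as low in its description, and was analysed as high.

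Fibrillar collagen is made as procollagen chains that fold into a triple helix in the endoplasmic reticulum. Prolyl 4-hydroxylase, whose catalytic subunit is encoded by P4ha1, hydroxylates prolines of the chains and so stabilizes the helix, and the chaperone encoded by Serpinh1 (Hsp47) binds the folded molecule. After secretion the ends are cleaved, fibrils assemble, and lysyl oxidase, encoded by Lox, starts the cross-links between molecules. Type I collagen (Col1a1 and Col1a2) and type III collagen (Col3a1) form the bulk of fibrils in stroma, type V (Col5a1 and Col5a2) starts and sizes them, and type XII (Col12a1) sits on their surface. Fibroblasts are the best known source in glandular organs, and smooth muscle cells make collagen too.

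Values are the intensities deposited by the authors, on a linear scale. Differences are high minus low corn oil on the scale of log2(value + 156.1) with values below 0 set to 0, which understates the change of dim probe sets. They were tested with limma over 5244 probe sets, and an adjusted p is the Benjamini-Hochberg value over all of them. Across the arrays the median value ran from 573 to 711 in high-oil and from 593 to 634 in low-oil rats. Bacterial spike-in controls split the arrays across the diets: high-oil rat 1 and low-oil rats 1 and 2 had more of that signal than the other 3 arrays.

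Promoters were at hand in a RefSeq table (build GRCr8) for 6 of the 10 genes and 5 of the 9 measured. Stretches of 100 bases are shown for Col1a2 and Col5a2, which were both highest on low-oil rat 1 and low on high-oil rat 2, and for Serpinh1, which was high on both. The Col1a2 stretch is chr4:33518307-33518406 on the plus strand, the Col5a2 stretch chr9:55090152-55090251 on the minus strand and the Serpinh1 stretch chr1:163062977-163063076 on the minus strand, each written 5′ to 3′ on the strand of its gene. The stretches are not from the same position. That of Col1a2 begins 250 bases before the annotated gene start and holds its matches, while those of Col5a2 and Serpinh1 are the last 100 bases before it. Capitals mark matches, on either strand, to CCAAT (the CCAAT box), TATAAA (the TATA box), GGGCGG (the GC box) or GAANNTTC (the core of a heat shock element), which do not overlap here.
Col1a2: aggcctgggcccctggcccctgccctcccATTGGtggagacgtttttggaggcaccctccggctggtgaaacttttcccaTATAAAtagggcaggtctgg
Col5a2: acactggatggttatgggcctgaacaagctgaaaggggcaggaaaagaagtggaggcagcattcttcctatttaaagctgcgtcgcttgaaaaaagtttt
Serpinh1: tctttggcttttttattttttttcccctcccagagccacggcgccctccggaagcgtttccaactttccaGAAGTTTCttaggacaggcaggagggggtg
In the Col1a2 window CCAAT starts at -221 on the opposite strand and TATAAA at -170, counted from the annotated gene start. In the Serpinh1 window GAANNTTC starts at -30, and GGGCGG at -129, outside the printed stretch. Of 33469 windows of 250 bases before to 50 after a gene start, 37.5% held CCAAT, 14.2% TATAAA, 33.1% GGGCGG and 8.59% GAANNTTC on either strand. Neither the Col5a2 stretch nor the rest of its window had a match to any of the 4 motifs.

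No collagen or collagen processing gene passed the test between the diets, and most leaned lower under the high corn oil diet. Of the 15 tested probe sets 11 were lower and 4 higher, with a median log2 difference of -0.32, against a median of 0.032 over all tested probe sets, of which 46.1% were lower. This and later counts of the 15 hold repeats of a gene, as Col1a1 had 4 of them, Lox 3 and Col3a1 2. With only the brightest probe set of each of the 9 genes the median was -0.39, and Col12a1, P4ha1 and Serpinh1 were higher. Col5a1 was lower, but like those genes it differed by less than its SE. Much of the lean rested on low-oil rat 1: without it the median of the 15 was -0.11, beside 0.015 over all tested probe sets. At an adjusted p under 0.05 limma called 0 of the 15, beside 0% of all tested probe sets. At an unadjusted p under 0.05 it called 1, for Col1a2, which was lower, beside 9.95% of all tested probe sets in either direction and 4.81% that were lower. The smallest adjusted p among the 15 was 0.500, and over all probe sets it was 0.462. In 2 of the 15, 1 of Col1a1 and the 1 of Col1a2, all 3 high corn oil arrays lay below all 3 low ones, as did 6.71% of all tested probe sets. In none did all 3 high arrays lie above, beside 8.83% of all tested.

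**Figure D1:**
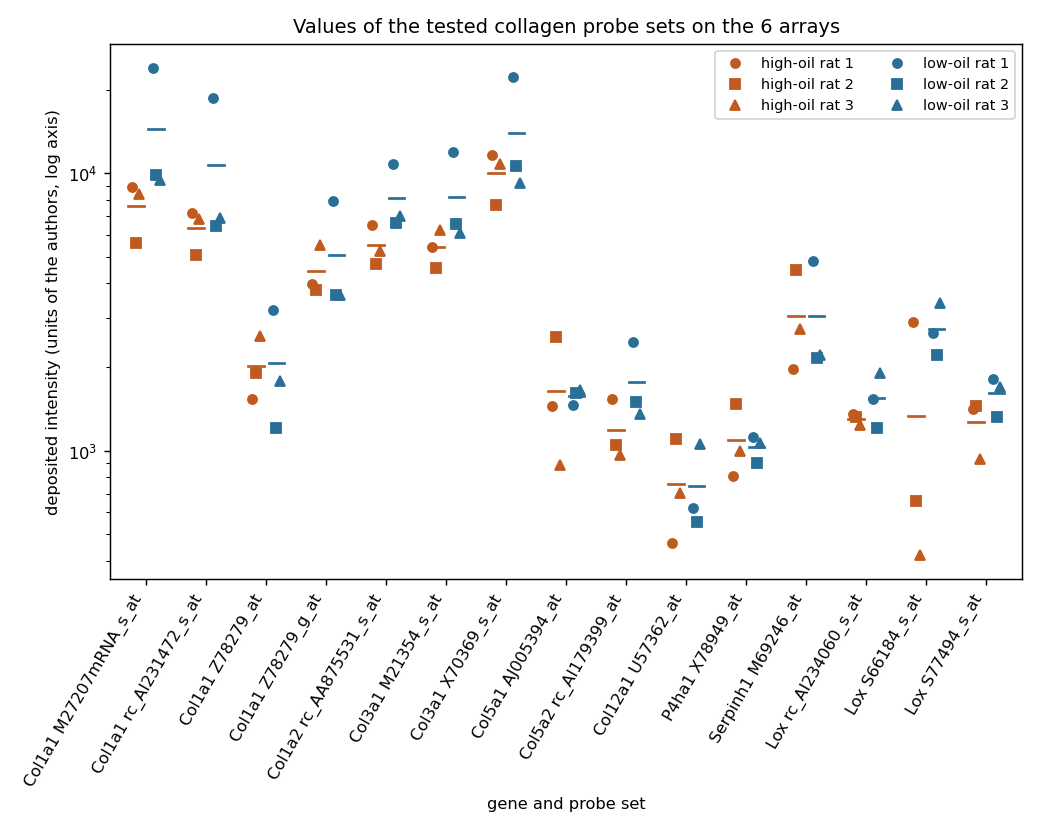
Deposited intensity of the 15 tested collagen and collagen processing probe sets on each array, on a log axis, with high corn oil to the left (orange) and low corn oil to the right (blue) of each name. Horizontal lines are the means of the 3 arrays. Low-oil rat 1 (blue circle) is the highest of the 6 arrays in 10 of the 15.

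Col1a1 encodes the chain present in double dose in the type I collagen molecule. Its brightest probe set, M27207mRNA_s_at, was at 8878, 5605 and 8382 in high-oil rats, against 23846, 9853 and 9474 in low-oil rats. All 3 high arrays were below the lowest low array, but the gap to low-oil rats 2 and 3 was small beside the excess of low-oil rat 1. The means were 7622 ± 1764 (SD, n = 3) in high-oil and 14391 ± 8191 in low-oil rats, with a log2 difference of -0.79 ± 0.37 (SE) and a 95% interval of -1.67 to 0.079 (limma adjusted p = 0.505). Without low-oil rat 1 the difference was -0.36.

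The other Col1a1 probe sets shared the high value on low-oil rat 1 and differed in how the high arrays stood to the remaining low arrays. For rc_AI231472_s_at the values were 7177, 5052 and 6832 in high-oil rats and 18652, 6448 and 6875 in low-oil rats. The groups overlapped, and the log2 difference of -0.57 ± 0.40 (limma adjusted p = 0.585) was -0.082 without low-oil rat 1. Z78279_g_at was at 3990, 3797 and 5491 in high-oil rats and at 7900, 3639 and 3623 in low-oil rats. Here every high array was above low-oil rats 2 and 3, and the difference of -0.11 ± 0.32 (limma adjusted p = 0.902) turned to 0.26 without low-oil rat 1. Z78279_at, from the same transcript record, was at 1540, 1899 and 2589 in high-oil rats and at 3213, 1208 and 1777 in low-oil rats, a difference of 0.036 ± 0.35 (limma adjusted p = 0.974) that was 0.39 without low-oil rat 1. So the 4 probe sets of Col1a1 disagree on direction once that array is set aside. The pair M27207mRNA_s_at and rc_AI231472_s_at differed by a root mean square of 0.14 log2 units over the 6 arrays after centring, and the pair with the name Z78279 by 0.19, while the 4 pairs across these differed by 0.31 to 0.54. Over all 1478 pairs of tested probe sets of a shared gene, the median was 0.36.

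Col1a2, which encodes the other type I chain, had the smallest unadjusted p of the members. Its probe set rc_AA875531_s_at was at 6491, 4713 and 5247 in high-oil rats, against 10798, 6592 and 7005 in low-oil rats. The groups did not overlap, although high-oil rat 1 and low-oil rat 2 were close. The means were 5484 ± 913 (SD, n = 3) in high-oil and 8131 ± 2318 in low-oil rats, and the log2 difference was -0.53 ± 0.23 with an interval of -1.06 to -0.0014 (limma unadjusted p = 0.0495, adjusted p = 0.500). It was -0.31 without low-oil rat 1, and the high arrays were then still below both low arrays left.

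Col3a1 encodes the single chain of type III collagen. M21354_s_at was at 5413, 4550 and 6236 in high-oil rats, against 11901, 6564 and 6061 in low-oil rats. High-oil rat 3 lay above low-oil rat 3, so the groups overlapped. The log2 difference was -0.53 ± 0.27 (limma adjusted p = 0.517), and -0.23 without low-oil rat 1. X70369_s_at was at 11610, 7650 and 10780 in high-oil rats and at 22098, 10597 and 9206 in low-oil rats. Both high-oil rats 1 and 3 exceeded low-oil rats 2 and 3. Its difference of -0.39 ± 0.34 (limma adjusted p = 0.652) was -0.0027 without low-oil rat 1, -0.21 without high-oil rat 2 and -0.63 without low-oil rat 3.

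The type V chains did not vary alike. Col5a2 (rc_AI179399_at) was at 1538, 1045 and 967 in high-oil rats, against 2451, 1499 and 1355 in low-oil rats. Only high-oil rat 1 reached into the low range. The difference was -0.50 ± 0.28 (limma adjusted p = 0.530), and -0.26 without low-oil rat 1. Col5a1 (AJ005394_at) was at 1445, 2574 and 890 in high-oil rats and at 1456, 1611 and 1647 in low-oil rats. The high arrays spanned the highest and the lowest value of the 6, with the low arrays close together between them. Its difference was -0.056 ± 0.34 with an interval of -0.85 to 0.74 (limma adjusted p = 0.955). It was -0.42 without high-oil rat 2 and 0.28 without high-oil rat 3, and 0.46 with that rat counted as low.

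Col12a1 (U57362_at), of the fibril surface, was at 463, 1103 and 705 in high-oil rats and at 621, 555 and 1054 in low-oil rats. The ranges were nearly the same, and the difference was 0.0021 ± 0.35, with an interval of -0.82 to 0.83 (limma adjusted p = 0.998). This interval is wide in both directions, so the arrays do not show that the level was alike. Leaving out high-oil rat 2 gave -0.26 and leaving out high-oil rat 1 gave 0.25.

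**Figure D2:**
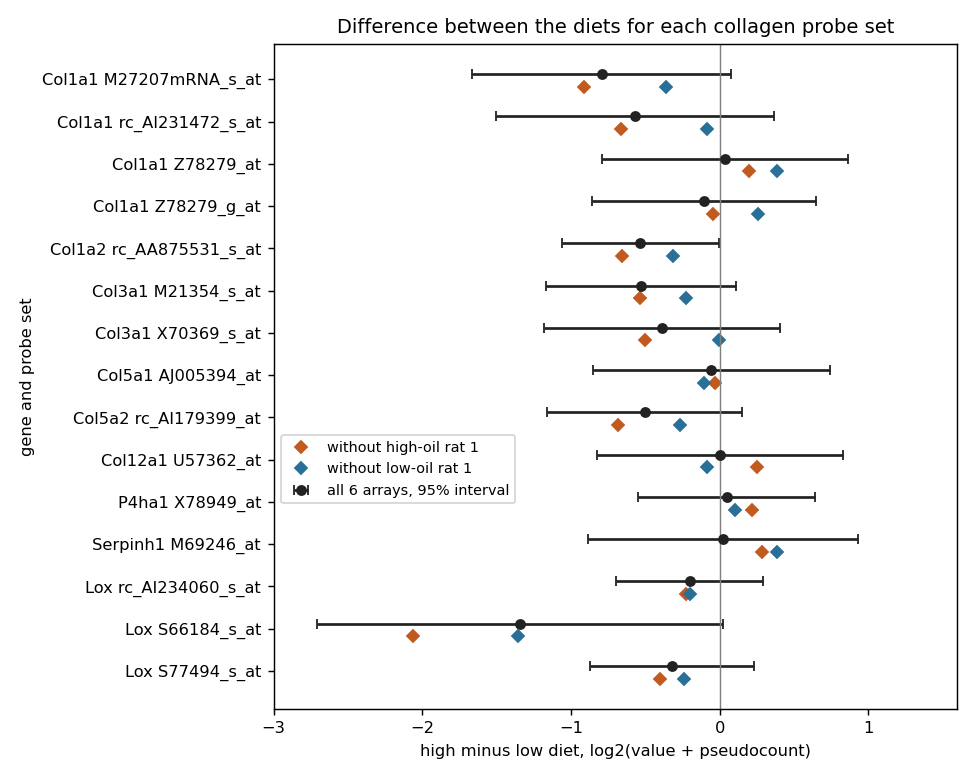
High minus low corn oil difference of each tested probe set on the log2(value + 156.1) scale, with its 95% interval from limma (black), and the same difference without high-oil rat 1 (orange) or without low-oil rat 1 (blue). The interval leaves out 0 for Col1a2 alone, narrowly, and the blue points of all 4 Col1a1 probe sets lie to the right of the black ones.

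The enzymes and chaperone of collagen maturation gave no common direction. P4ha1 (X78949_at) was at 811, 1476 and 997 in high-oil rats and at 1120, 899 and 1069 in low-oil rats. The high arrays again held the highest and the lowest value, and the difference was 0.047 ± 0.25, with an interval of -0.55 to 0.64 (limma adjusted p = 0.948). Without high-oil rat 2 it was -0.16 and without high-oil rat 1 it was 0.22.

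Serpinh1 (M69246_at) was at 1974, 4472 and 2734 in high-oil rats and at 4825, 2151 and 2207 in low-oil rats. High-oil rat 2 and low-oil rat 1 stood well above the other 4 arrays. The means were 3060 ± 1281 and 3061 ± 1528 (SD, n = 3 each) in high-oil and low-oil rats, and the difference was 0.023 ± 0.39 (limma adjusted p = 0.984). It was -0.28 without high-oil rat 2 and 0.39 without low-oil rat 1. On low-oil rat 1, Serpinh1 was therefore high together with its main clients, the type I and III chains, whereas on high-oil rat 2 it was 0.61 log2 units above its own mean and the brightest Col1a1, Col1a2 and Col3a1 probe sets were 0.80, 0.47 and 0.55 below theirs.

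Lox gave the largest single difference among the members and the widest disagreement between probe sets. S66184_s_at was at 2915, 657 and 421 in high-oil rats, against 2646, 2204 and 3393 in low-oil rats. High-oil rats 2 and 3 were far below every low array, while high-oil rat 1 lay among them. The difference was -1.34 ± 0.58, with an interval of -2.71 to 0.022 (limma adjusted p = 0.501). Without high-oil rat 1 it was -2.06 (limma adjusted p = 0.0219), the single member call in that fit, in which limma called 214 of 5244 probe sets (4.08%). It was -0.86 without high-oil rat 3.

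The other Lox probe sets did not show falls of this size on high-oil rats 2 and 3, although S77494_s_at was lowest on high-oil rat 3. S77494_s_at was at 1418, 1452 and 931 in high-oil rats and at 1808, 1318 and 1696 in low-oil rats, a difference of -0.32 ± 0.23 (limma adjusted p = 0.604) that was -0.14 without high-oil rat 3 and 0.034 with that rat counted as low. For rc_AI234060_s_at the values were 1353, 1325 and 1235 in high-oil rats and 1528, 1210 and 1900 in low-oil rats. Its high arrays lay within the low range, and the difference was -0.20 ± 0.21 (limma adjusted p = 0.702), -0.35 without low-oil rat 2 and -0.055 without low-oil rat 3. These 2 differed from each other by a root mean square of 0.20 log2 units, and from S66184_s_at by 0.83 and 0.91. Names ending in _s_at mark probes that can match more than 1 transcript, and which transcripts each of the 3 measures was not tested.

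The spread within the low diet was wide for Col1a1, Col3a1 and Serpinh1, less so for Col1a2 and Col5a2, and narrow for Col5a1. Low-oil rat 1 was the highest of the 6 arrays in 10 of the 15 probe sets, against 14.1% of all tested probe sets, and high-oil rat 2 in 3, against 25.9%. The 10 were all those of Col1a1, Col1a2, Col3a1, Col5a2 and Serpinh1 and 1 of Lox. Relative to the mean of low-oil rats 2 and 3, low-oil rat 1 was 2.15 to 2.80 times as high for the Col1a1 probe sets, 1.89 and 2.23 times for Col3a1, 2.21 times for Serpinh1, 1.72 times for Col5a2 and 1.59 times for Col1a2. It was 0.89 times as high for Col5a1 and 0.77 times for Col12a1. The SD of log2 values among the low arrays was 0.63 to 0.85 for Col1a1, above that of at least 91.3% of all tested probe sets, whose median was 0.23. For the Col3a1 probe sets the SD was above that of 86.9% and 92.4% of all tested probe sets. For Serpinh1 the share was 91.4%, for Col5a2 79.8% and for Col1a2 75.7%. For Col5a1 the SD was 0.086, above 13.8% of them.

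**Figure D3:**
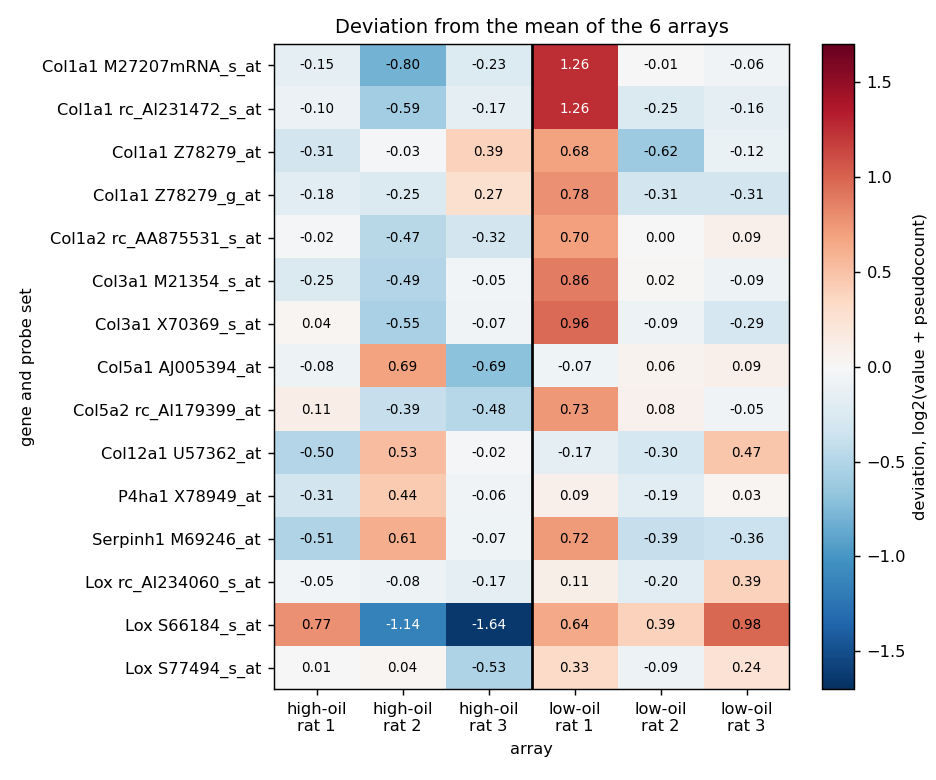
Deviation of each tested probe set from its own mean over the 6 arrays, in log2(value + 156.1) units, with high corn oil arrays left of the black line and low corn oil arrays right of it. Red is above and blue below the mean. The column of low-oil rat 1 is red for the Col1a1, Col1a2, Col3a1, Col5a2 and Serpinh1 rows and pale for Col5a1 and Col12a1.

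Averaged over the 15 probe sets and set against the mean of low-oil rats, the high arrays stood at -0.28, -0.34 and -0.43 log2 units, and the low arrays at 0.42, -0.30 and -0.12. High-oil rat 1 lay between low-oil rats 2 and 3, the other high arrays somewhat below them, and low-oil rat 1 far above the rest. The place of high-oil rats 2 and 3 leaned on Lox S66184_s_at, which had the largest deviation on both. It was at -1.14 and -1.64 log2 units from its own mean there, and the other Lox probe sets did not share falls of this size. Without low-oil rat 1 the median difference of the members was -0.11, with 11 of 15 lower, beside 48.3% of all tested probe sets lower in that fit. They were not the same 11, as Col1a1 Z78279_g_at turned to 0.26 and Col12a1 to -0.083. Some of the 11 were close to 0, such as Col3a1 X70369_s_at at -0.0027. The 2 separate probe sets, of Col1a1 and Col1a2, were the same, and 10.8% of all tested probe sets then separated in this direction. Low-oil rat 1 also had the highest spike-in signal and the highest 3′ to 5′ log2 ratio of the actin control, at 0.43 against 0.084 to 0.25 on the other arrays, and the part of either in the collagen values was not tested. Among the arrays with more spike-in signal (1 high, 2 low) 14 of 15 probe sets were lower in high-oil rat 1, with a median of -0.34. The 2 low arrays there include low-oil rat 1, while low-oil rat 2, at -0.30, was close to high-oil rat 1, at -0.28. Among the arrays with less spike-in signal (2 high, 1 low) 11 were lower with a median of -0.22. Shares over all tested probe sets were not counted within these groups of arrays.

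Other collagen genes showed no lean. Of 28 further collagen genes listed, 8 had a probe set and 4 were tested, with 2 higher and 2 lower, a median of 0.026 and 0 called by limma, or 0 at an unadjusted p under 0.05. Beside this list and those below, 46.1% of all tested probe sets were lower and limma gave 9.95% an unadjusted p under 0.05. Col10a1, which encodes the collagen of growth plate cartilage, was at 1017, 2257 and 2184 in high-oil rats and at 1226, 982 and 1443 in low-oil rats. High-oil rats 2 and 3 were above all low arrays and high-oil rat 1 was not, and the difference was 0.47 ± 0.32 (limma adjusted p = 0.579), 0.81 without high-oil rat 1, 0.28 without high-oil rat 2 and 0.31 without high-oil rat 3. Of the cartilage and bone markers, which had 4 genes with a probe set, Acan and Bglap were at or below 0 on all 6 arrays and none was tested. Col15a1, of basement membrane zones, was at -0.27 ± 0.21 (-0.42 without low-oil rat 1, -0.15 without low-oil rat 2) and Col8a1, of vessel walls, at 0.10 ± 0.34 (0.38 without low-oil rat 1, -0.11 without low-oil rat 3).

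Of 27 other genes of collagen maturation 9 were tested, with 4 higher and 5 lower, a median of -0.0013 and 0 called (1 at an unadjusted p under 0.05). That 1 was Loxl1, a lysyl oxidase of the same family as Lox that also acts on elastin. It was at 1748, 2062 and 1639 in high-oil rats, against 4971, 2106 and 2767 in low-oil rats, with a difference of -0.72 ± 0.30 (limma adjusted p = 0.494). All high arrays were below all low ones, the nearest pair by little, and the difference was -0.39 without low-oil rat 1. Sparc, which encodes a matrix protein that binds collagen, ran the other way from Col1a1 on low-oil rat 1. It was at 23910, 29243 and 32507 in high-oil rats and at 11561, 14797 and 32452 in low-oil rats, a difference of 0.67 ± 0.36 (limma adjusted p = 0.524) that was 0.37 without low-oil rat 1 and 1.11 without low-oil rat 3. The disulfide isomerase gene Pdia3 was at -0.17 ± 0.18 (-0.33 without high-oil rat 1, -0.046 without high-oil rat 2, -0.11 without low-oil rat 1).

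Collagen receptors had lower values more often than not, on few genes. Of 12 listed 4 were tested, 3 of them lower, with a median of -0.57 and 0 called (3 at an unadjusted p under 0.05). Over all tested probe sets the shares were 46.1% lower and 9.95% at that p. Cd44, a receptor mainly of hyaluronan that also binds collagen, was at 484, 453 and 515 in high-oil rats, against 912, 998 and 1008 in low-oil rats. Each group was tight and the groups did not overlap, with a difference of -0.82 ± 0.22 (limma adjusted p = 0.462) that was -0.86 without low-oil rat 1. Itga1, the collagen-binding integrin subunit alpha 1, was at 4575, 1738 and 1163 in high-oil rats and at 5338, 5316 and 4527 in low-oil rats. As for the Lox probe set S66184_s_at, high-oil rat 1 lay with the low arrays. The difference was -1.19 ± 0.43 (limma adjusted p = 0.480), -1.72 without high-oil rat 1 (limma adjusted p = 0.0208). That fit without high-oil rat 1 called 4.08% of all tested probe sets. Ddr1, a collagen-activated receptor tyrosine kinase of epithelia, was at 6835, 6867 and 9495 in high-oil rats and at 6434, 4956 and 5442 in low-oil rats, a difference of 0.44 ± 0.19 (limma adjusted p = 0.494) that was 0.29 without high-oil rat 3.

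Among proteases that cut collagen and their inhibitors, 7 of 13 were tested, 5 lower and 2 higher, with a median of -0.19 and 0 called (0 at an unadjusted p under 0.05). The membrane collagenase gene Mmp14 was at 2495, 1387 and 355 in high-oil rats and at 1857, 4092 and 3616 in low-oil rats. The groups overlapped through high-oil rat 1, and the difference of -1.32 ± 0.59 (limma adjusted p = 0.501) was -0.65 without high-oil rat 3 and 0.0052 with that rat counted as low, as its description has it. Ctsk, a collagen-degrading cathepsin gene, was at -0.52 ± 0.29 (-0.28 without low-oil rat 2). Timp1, an inhibitor gene, was at 6230, 6294 and 8353 in high-oil rats and at 13950, 6448 and 6676 in low-oil rats, the same excess on low-oil rat 1 as Col1a1. Its difference was -0.29 ± 0.31 (limma adjusted p = 0.707), 0.070 without that array and -0.48 without low-oil rat 2.

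Of 18 growth factor and receptor genes known to act on collagen production 8 were tested, 7 higher and 1 lower, with a median of 0.28 and 0 called (1 at an unadjusted p under 0.05). The lower gene was Pdgfra, a gene of a receptor for platelet-derived growth factors on fibroblasts, at -0.97 ± 0.28 (limma adjusted p = 0.462). Tgfb2, a ligand that induces collagen genes in many cells, was at 1806, 2060 and 4129 in high-oil rats and at 278, 1352 and 2441 in low-oil rats. The groups overlapped, and it was lowest on low-oil rat 1, where the collagens were highest. Its difference was 1.15 ± 0.64 (limma adjusted p = 0.530), and 0.42 without that array. Pdgfa was at 0.55 ± 0.42 (1.00 without high-oil rat 1, 0.19 without high-oil rat 3, -0.13 with that rat counted as low).

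Fibroblast markers other than collagens were lower in the high diet in 7 of 7 tested genes, with a median of -0.60 and 0 called by limma (5 at an unadjusted p under 0.05). Of all tested probe sets 46.1% were lower, and 4.81% were lower with an unadjusted limma p under 0.05. The summed values of the fibroblast markers were 76592 to 95293 on the high and 122237 to 128394 on the low arrays, with Pdgfrb at or below 0 on 2 high arrays. Dcn and Mgp weighed most in these sums, with means of 52684 and 43357 on the low arrays. Pdgfra, given above among the growth factor and receptor genes, is also 1 of these 7. The 3 low arrays stood at 0.13, -0.071 and -0.063 log2 units from the mean of low-oil rats for this list, a narrower span than the 0.42, -0.30 and -0.12 of the collagen probe sets. Smooth muscle markers were lower in 9 of 10, with a median of -0.32, summed values of 162460 to 220421 on the high and 205282 to 257493 on the low arrays, and none at 0. Low-oil rat 1 was the highest array for 8 of these 10, for 4 of the 7 fibroblast markers and for 1 of 8 luminal markers. It was the highest for 14.1% of all tested probe sets. Luminal epithelial markers had 4 of 8 lower, with a median of 0.031, and sums of 206654 to 297174 on the high and 261126 to 308340 on the low arrays. These 8 were not flat one by one. Pbsn was at -1.19 ± 0.57 and Msmb at -0.65 ± 0.28, while 4 were higher, with Epcam at 0.32 ± 0.14. On high-oil rats 2 and 3, but not on high-oil rat 1, Pbsn and Msmb were below every low array. All 9 luminal markers with a probe set were above 0 on every array. Macrophage markers were lower in 5 of 6, with a median of -0.36, and skeletal muscle markers in 5 of 5, with a median of -0.30. For endothelial markers 3 of 5 were lower, with a median of -0.073. So lower markers were not limited to fibroblasts and smooth muscle. The part of the content of any of these cell types in the collagen values was not tested.

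**Figure D4:**
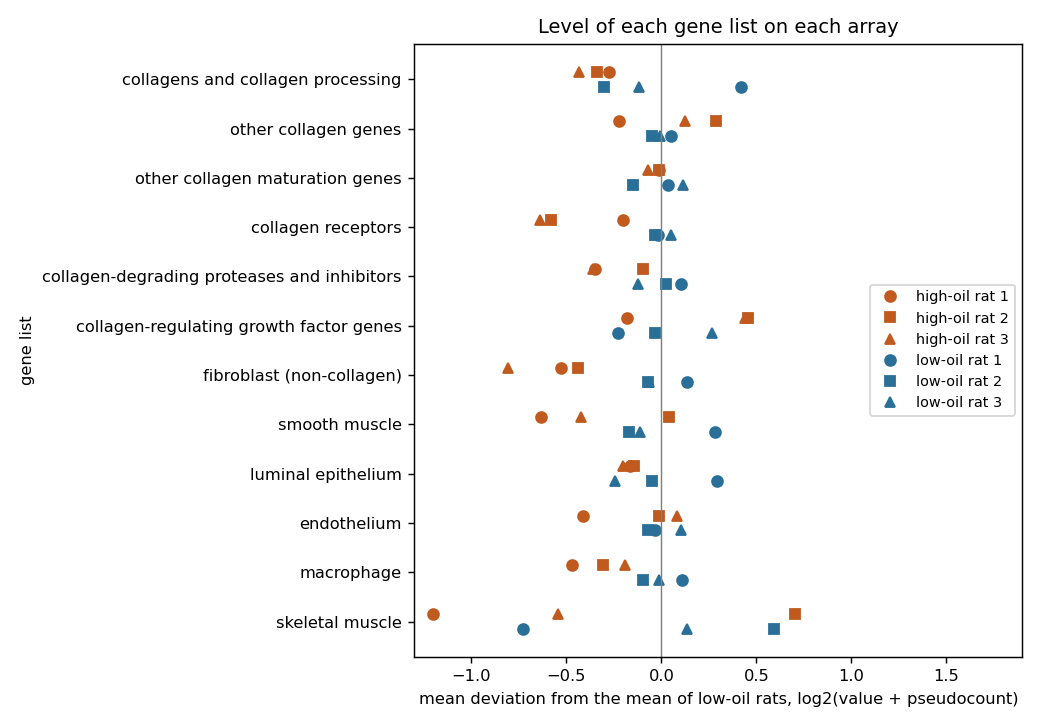
Mean deviation of each gene list from the mean of low-oil rats on each array, in log2(value + 156.1) units, with high corn oil in orange drawn above low corn oil in blue. For the collagens low-oil rat 1 is at 0.42 and the other 5 arrays lie from -0.43 to -0.12, while for the fibroblast markers all high arrays lie left of all low arrays.

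The genes whose profile was most like that of the 5 fibrillar collagens (their mean centred log2 value over the 6 arrays, 1 probe set a gene) were looked for among 2472 other genes that varied at least moderately. Tspo, a mitochondrial outer membrane protein gene, was closest, at a root mean square difference of 0.11 log2 units over 6 arrays, where the median gene was at 0.52. Its values were 4557, 4331 and 4154 in high-oil rats and 7344, 4498 and 4690 in low-oil rats. Next came Pkp4, a gene of a cell junction protein (0.13), Tcn2, which encodes the vitamin B12 carrier transcobalamin (0.13), Tubgcp4, of the gamma-tubulin complex (0.14), Grn, which encodes progranulin (0.14), and Adissp (0.14). The profile itself was at 0.72 on low-oil rat 1 and from -0.36 to 0.0098 on the other arrays. Genes chosen for likeness to it on these same arrays share that shape, so the next values follow from the choice. For all 6, low-oil rat 1 was the highest array and the difference between the diets was -0.30 to -0.45, with limma adjusted p of 0.505 to 0.652. Without low-oil rat 1 it was -0.077 for Tspo, -0.23 for Pkp4, -0.33 for Tcn2, -0.16 for Tubgcp4, -0.21 for Grn and -0.18 for Adissp. Of the 5 fibrillar genes in this mean profile, Col5a1 did not share its high value on low-oil rat 1.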

How the data were processed

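Dorsolateral prostate RNA of 6 rats, 3 per diet, was hybridized to 1 array each. The authors' deposited intensity values are linear and had been scaled before deposit; MAS5 is the tool named, per the submitters' processing notes, with version and settings not given in the sources used here. From 18.5% to 23.1% of values per array are at or below 0, with negatives among them, which MAS5 signals are not, so the algorithm behind these values is not known here. No 2 arrays shared more than 0.0568% of values. Of 8799 probe sets 59 were controls, and names came from the platform annotation, with 6985 of 7006 single-gene probe sets renamed by gene identifier to GRCr8 symbols.

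Values below 0 were set to 0 and transformed as log2(value + 156.1), a pseudocount of the overall median divided by 4. Probe sets with a mean of at least 342.9 (the 40th percentile) were tested: 5244. limma 3.58.1 in R 4.3.3 (lmFit, eBayes with intensity trend, two-sided) used all 6 arrays, and was checked on simulated data. The number of arrays limits the precision. Members and lists were chosen with earlier results of these data known, so lists are described by counts and medians and carry no test. Named were all members, the 3 genes of smallest p in each of 5 pathway lists, and the 6 genes most like the fibrillar collagens; 1 probe set, the brightest, stood for each other gene. Markers of endothelium (3 of 5 lower), macrophages (5 of 6) and skeletal muscle (5 of 5) were also counted, and 0 genes of these lists were called (1, 3 and 0 at an unadjusted p under 0.05). Over all tested probe sets 46.1% were lower and 9.95% were at that p. The replicate numbers were not taken as pairs: deviations of same-numbered arrays correlated at -0.054, -0.20 and 0.18.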

Additional observations from a re-analysis of the deposited data

How the results depend on the processing

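Over 17 alternatives for 36 named probe sets, 577 of 606 values kept their direction and side of the threshold, 27 changed direction and 2 passed the threshold. The changed filters, the fit with no intensity trend and the replicate block leave each difference as it is and alter only its SE and p. Direction could not change in those settings, so the 577 overstate how stable the directions were. The count of called members was 0 to 1 with an array left out, the 1 being Lox without high-oil rat 1. The members' median ran from -0.44 to -0.11 over the arrays left out, and from -0.39 to -0.24 over the other settings. With the replicate number as a block (replicate block) the median was -0.32 and 0 members were called, and the numbers are not known to pair the rats. No limma fit with all 6 arrays called a member. Over all probe sets the number called was 0 with all 6 arrays and the filter, 9 with no filter and 214 without high-oil rat 1.

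Among the values that changed direction, Col12a1 was at -0.0019 with the smaller pseudocount, -0.046 after quantile normalization and -0.24 with spike-in level as a block. That block gave -0.021 for Col1a1 Z78279_at, -0.050 for P4ha1 and -0.020 for Serpinh1, and array weights gave 0.16 for Col1a1 Z78279_g_at. Counting high-oil rat 3 as low gave -0.25 for Z78279_at, 0.46 for Col5a1, 0.034 for Lox S77494_s_at, 0.0052 for Mmp14 and -0.13 for Pdgfa. With 1 array left out, the ranges were -0.26 to 0.25 for Col12a1, -0.16 to 0.22 for P4ha1, -0.28 to 0.39 for Serpinh1, -0.27 to 0.39 for Z78279_at, -0.29 to 0.26 for Z78279_g_at, -0.42 to 0.28 for Col5a1, -0.11 to 0.38 for Col8a1 and -0.48 to 0.070 for Timp1. Why they turned was not tested. The number of arrays, 3 per diet, and unknown detection calls limit what dim probe sets can show.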
